A study of Mus musculus with 12 samples.

Results

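Replication-dependent histone genes were examined as a group in a prostate cancer RNA-seq series. Members were taken by their names: every gene with the symbol of a linker histone H1f1 to H1f5, or of the clustered families H2ac, H2bc, H3c and H4c. The rule used no measured value. It found 56 genes among 40077 in the cell data and the same 56 among 34508 in the tumor data. They comprised 5 H1, 15 H2A, 14 H2B, 12 H3 and 10 H4 genes, of which 46 lay on chromosome 13 and 10 on chromosome 3. Among the H2A genes, H2ac14 is annotated as an unprocessed pseudogene. A further 9 copies are listed only under older Hist symbols and were not counted as members.

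The series tested YJ1206, an oral PROTAC degrader. Such a molecule tethers its targets to a ubiquitin ligase, and the targets of YJ1206 are the kinases CDK12 and CDK13. Myc-CaP cells, a line from a prostate tumor of a mouse carrying a MYC transgene, received DMSO or 1 μM YJ1206 for 24 h, with 3 libraries per group. The same line was grown under the skin of male FVB mice, and these received vehicle or 100 mg/kg YJ1206 by mouth 3 times a week, again with 3 libraries per group. All 4 groups descend from this 1 line, whose host in the tumors supplies stroma, vessels and immune cells. For the cells the labels give polyA RNA and for the tumors total RNA, whereas the protocol text for both describes removal of ribosomal RNA. The DMSO and the YJ1206 libraries of the cells carry names from separate number series, and whether they were prepared together is not given. Libraries were handled as separate samples, so the p-values measure the spread between the 3 libraries of a group. The paper describes its replicates as biologically independent. Whether tumor library 3 is independent of libraries 1 and 2 was not tested, and the p-values take it as such.

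Estimated counts totalled 18198086 to 18519926 in the DMSO cells, 13936902 to 14869592 in the YJ1206 cells, 15391544 to 26928365 in the vehicle tumors and 18307820 to 22418665 in the YJ1206 tumors. CPM here are counts scaled to the TMM-adjusted library size. The floor of 3 counts was instead scaled to total counts, without the TMM factors. On that scale it was worth 0.162 to 0.215 in a cell library and 0.111 to 0.195 in a tumor library. The TMM factors ran from 0.934 to 1.07 in the cells and from 0.991 to 1.01 in the tumors. Of the epithelial markers, Epcam did not exceed 0.194 CPM and Cdh1 did not exceed 1.29 CPM in any library. Cdk12 mRNA was higher with YJ1206 in cells, by 0.58 ± 0.04 (SE) on the log2 scale, and in tumors by 0.35 ± 0.07. A degrader acts on the protein, so this mRNA does not check the treatment. Vehicle tumors 1 and 3 stood apart by skeletal muscle markers, whose summed level was 636 and 390 CPM against 12.7 CPM in vehicle tumor 2 and 7.37 to 8.35 CPM in the YJ1206 tumors.

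In dividing cells these genes supply the histones that package newly copied DNA. Pairs of H2A and H2B and of H3 and H4 form the nucleosome core, and H1 binds the linker DNA between nucleosomes. Their transcription rises at the entry into S phase through NPAT, a cofactor that CDK2 with cyclin E activates. The messages carry no introns and, unlike other mRNAs, normally end in a conserved stem-loop rather than a poly(A) tail. The stem-loop binding protein SLBP and the U7 small nuclear ribonucleoprotein direct the cut that forms this end. Polyadenylated forms also exist, made from poly(A) sites beyond the stem-loop.

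The stem-loop letters show which members the annotation carries past their natural end. A 16-base pattern, GG, any 2 bases, CTTTT, any 1 base, AG, any 2 bases and CC, was searched on the sense strand of the GENCODE transcripts (GRCm38), and it was found in 35 of the 56 members and in 78 of 21951 protein-coding genes, or 0.355%. In 18 of the 35 the annotation goes on for 100 bases or more after the stem-loop, and in the other 17 for less. The remaining 21 members, among them H2bc18, H2bc21, H2bc4, H1f1 and H1f5, have no annotated match, which says only that these letters are not in their annotated transcript. There were 6 forms of the 16 bases. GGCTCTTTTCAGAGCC was the commonest, in 21 members, and the forms with CCC and GGG in the stem occurred in H4 genes. An example of each form is given with 5 flanking bases on either side, the 16 bases in capitals. For the neighbours H3c14 and H3c15, which share the commonest form, both are shown.
H1f2 (chr13:23739512-23739527, plus strand): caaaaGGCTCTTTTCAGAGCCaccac
H2bc12 (chr13:22036300-22036315, plus strand): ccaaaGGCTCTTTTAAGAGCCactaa
H2ac20 (chr3:96220418-96220433, minus strand): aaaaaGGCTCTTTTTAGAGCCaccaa
H4c4 (chr13:23581950-23581965, plus strand): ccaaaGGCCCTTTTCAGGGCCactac
H4c9 (chr13:22040966-22040981, minus strand): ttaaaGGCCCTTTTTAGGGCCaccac
H4c2 (chr13:23757366-23757381, plus strand): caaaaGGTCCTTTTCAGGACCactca
H3c14 (chr3:96247327-96247342, plus strand): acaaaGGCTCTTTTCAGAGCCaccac
H3c15 (chr3:96238485-96238500, minus strand): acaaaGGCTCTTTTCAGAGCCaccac

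Promoters are shown for members whose levels moved together in the tumors and for the pair H3c14 and H3c15, which did not. RefSeq (GRCm38.p6) held 50 of the 56 promoters, each 300 bases long, from 250 before to 50 after the start. Both strands were searched for 4 motifs, printed in capitals. CCAAT, the NF-Y box, was in 44 of 50 members and 37.4% of all 32851 promoters. TATAAA was in 30 of 50 and 13.6% of all. The octamer ATTTGCAT, bound by OCT1, was in 12 of 50 and 1.74% of all. All 12 were H2A or H2B promoters, 6 of 14 and 6 of 12. AAACACA, known from H1 promoters, was in 8 of 50 and 7.18% of all, among them 4 of the 5 H1 genes.
H2bc18 promoter (chr3:96269450-96269749, plus strand): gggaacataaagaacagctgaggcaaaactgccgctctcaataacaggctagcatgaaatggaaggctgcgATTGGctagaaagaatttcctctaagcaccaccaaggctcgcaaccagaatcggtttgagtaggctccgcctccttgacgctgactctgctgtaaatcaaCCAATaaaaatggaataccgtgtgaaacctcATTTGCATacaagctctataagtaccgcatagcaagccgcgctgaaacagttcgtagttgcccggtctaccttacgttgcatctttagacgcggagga
H1f4 promoter (chr13:23622509-23622808, minus strand): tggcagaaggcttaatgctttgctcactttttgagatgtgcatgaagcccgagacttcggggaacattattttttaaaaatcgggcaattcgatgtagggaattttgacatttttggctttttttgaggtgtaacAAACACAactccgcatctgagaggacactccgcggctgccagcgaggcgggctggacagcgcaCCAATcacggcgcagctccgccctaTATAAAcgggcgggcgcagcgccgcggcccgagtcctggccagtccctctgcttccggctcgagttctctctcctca
H4c4 promoter (chr13:23581318-23581617, plus strand): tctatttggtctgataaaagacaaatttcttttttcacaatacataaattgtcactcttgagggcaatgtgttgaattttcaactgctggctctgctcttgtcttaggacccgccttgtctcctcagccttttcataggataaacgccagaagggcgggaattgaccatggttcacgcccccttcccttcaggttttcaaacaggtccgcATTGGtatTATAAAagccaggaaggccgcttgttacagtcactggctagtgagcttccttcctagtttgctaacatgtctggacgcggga
H3c14 promoter (chr3:96246435-96246734, plus strand): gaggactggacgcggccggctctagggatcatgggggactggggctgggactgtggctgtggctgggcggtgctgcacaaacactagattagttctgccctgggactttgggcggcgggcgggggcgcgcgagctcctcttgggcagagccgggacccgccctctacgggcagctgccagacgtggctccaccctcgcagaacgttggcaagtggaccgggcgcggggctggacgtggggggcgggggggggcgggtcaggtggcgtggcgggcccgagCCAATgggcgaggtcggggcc
H3c15 promoter (chr3:96239078-96239377, minus strand): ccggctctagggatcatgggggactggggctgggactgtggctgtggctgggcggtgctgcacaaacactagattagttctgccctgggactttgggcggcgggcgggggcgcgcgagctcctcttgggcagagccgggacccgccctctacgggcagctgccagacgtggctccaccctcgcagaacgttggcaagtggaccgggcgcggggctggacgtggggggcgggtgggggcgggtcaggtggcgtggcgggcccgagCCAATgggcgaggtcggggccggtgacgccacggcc
A matching string is a description and not a bound site. The promoters of H3c14 and H3c15, which face away from each other on chromosome 3, carried the same letter at 284 of 285 positions when shifted by 15 bases.

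Many members resemble each other in their transcripts as well as in their proteins. Reads of such copies can be split between them during counting, so values for a single copy are uncertain. In 31 of the 56 members fewer than 50% of the 31-base words of the transcript occurred in no other gene, and the median over members was 44.8%. H2ac19 had none of its own, since all of its words also occur in H2ac18. H3c15 shared 64.2% of its words with H3c14, whose annotated transcript is longer and shared 35.4% of its words with H3c15. H2bc18 overlaps an annotated lincRNA gene on the same strand, Gm42743, and an antisense gene, Gm20628. H2ac18 and H3c14 both overlap Gm20634 on the same strand. H1f4 overlaps another member, H2bc6, on the same strand and shared 24.5% of its words with it. Reads of such overlapping genes could be counted with these members. Sums over a class are less exposed to this splitting, and they are given first.

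In CPM, the summed level of every class was lower in the YJ1206 tumors than in the vehicle tumors and higher in the YJ1206 cells than in the DMSO cells, with no overlap between groups. For all 56 members together, vehicle tumors 1, 2 and 3 held 5881, 4877 and 5356 CPM and the YJ1206 tumors 1558, 2754 and 2272 CPM. The treated mean was 40.9% of the control mean. In the cells the sums were 55.4, 62.8 and 59.8 CPM with DMSO and 107, 97.8 and 91.5 CPM with YJ1206, so the treated mean was 166.3% of the control mean. On summed TPM the cell groups overlapped for H2A, H2B, H4 and all members together, and the log2 ratio went from 0.71 to 0.14 for H2B and from 0.56 to 0.16 for H4. These genes thus took up 0.483 to 0.591% of all counts in the vehicle tumors and 0.156 to 0.275% in the YJ1206 tumors.

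H1, the linker class, summed to 1029.8, 924 and 969 CPM in the vehicle tumors and 251, 447 and 371 CPM in the YJ1206 tumors. H2A summed to 862, 679.9 and 772 CPM and to 236, 412 and 339 CPM. H2B, its partner in the nucleosome, summed to 1279.9, 1087 and 1186 CPM and to 323, 578 and 479 CPM. In each of these classes the highest treated tumor, library 2, lay well under the lowest vehicle tumor. H3 summed to 1109, 951 and 1024 CPM and to 285, 532 and 440.1 CPM. H4 summed to 1599, 1234 and 1405 CPM and to 463, 786 and 642 CPM. The treated mean was 36.6% of the vehicle mean for H1, 42.7% for H2A, 38.8% for H2B, 40.7% for H3 and 44.6% for H4. In the cells it was 149.6%, 172.7%, 163.9%, 225.0% and 146.9% of the DMSO mean in the same order.

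**Figure D1:**
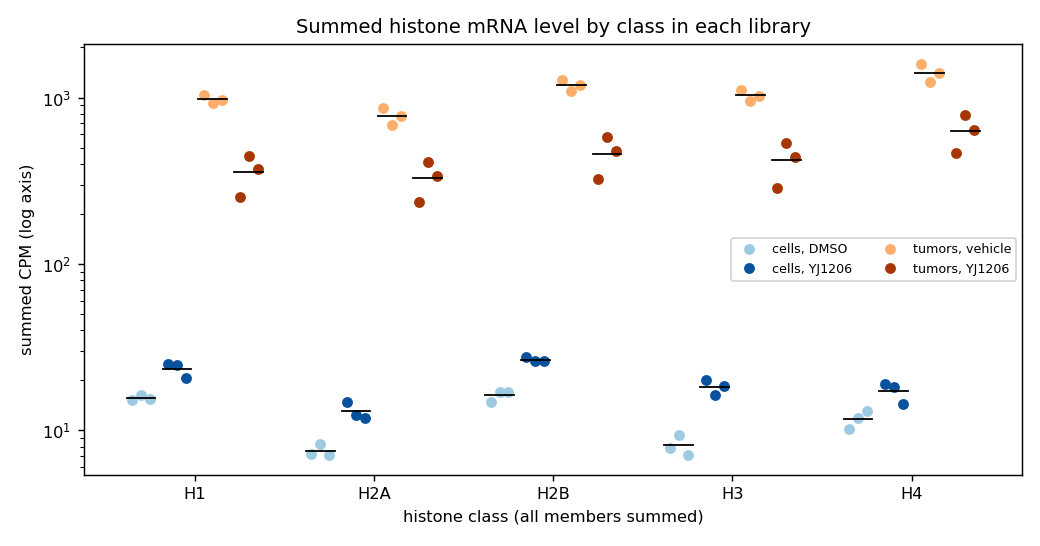
Summed CPM (log axis) of the replication-dependent histone genes of each class in the 4 groups, 1 point per library, with lines at the group means. Tumor libraries lie far above cell libraries in every class, the YJ1206 tumors below the vehicle tumors and the YJ1206 cells above the DMSO cells.

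Levels in the tumors were far above those in the cultured cells. To compare genes per length, the deposited TPM values were used, which are scaled by transcript length, and since cell and tumor values were normalized separately the ratio is a description. The median over members of the mean TPM was 2.92 in the DMSO cells and 235 in the vehicle tumors. Over the 51 members with more than 3 counts in the DMSO cells, the median ratio of vehicle tumor to DMSO cell TPM was 109, while over 14507 genes of all kinds it was 1.37. The smallest ratio was 5.38 for H2bc21, followed by 13.9 for H4c9, 14.5 for H1f2 and 28.1 for H2bc4, and the largest was 476 for H4c8. Members whose annotation runs 100 bases or more past the stem-loop had a median ratio of 114, those with fewer 116, and those without an annotated stem-loop 101. Growth in a host and the RNA named in the labels, polyA or total, differ together between cells and tumors and cannot be told apart.

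H2bc18, an H2B gene of the chromosome 3 cluster whose promoter is printed above, had the highest mean TPM of all members in each of the 4 groups. It reached 17.7 TPM in the DMSO cells, 23.1 in the YJ1206 cells, 2296 in the vehicle tumors and 765 in the YJ1206 tumors. Within its class it took 36.7% of the summed TPM in the vehicle tumors and 35.2% in the YJ1206 tumors. The leading H1 copy, H1f5, took 35.6% and 34.0%, while the leading H4 copy, H4c12, took 25.5% and 20.4%. Counts were low in the cells. Only 1 member, H1f2, had over 100 counts in every DMSO library, against 51 members in the vehicle tumors and 48 in the YJ1206 tumors. H2bc1 had 0 counts in all 12 libraries, H2ac1 at most 3 and H2ac14 at most 2, and these were too low to test anywhere. Of H2bc1, a count of 0 allows up to 0.215 in a cell library and 0.195 in a tumor library, for counting error only. These limits are scaled to total counts, without the TMM factors.

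**Figure D2:**
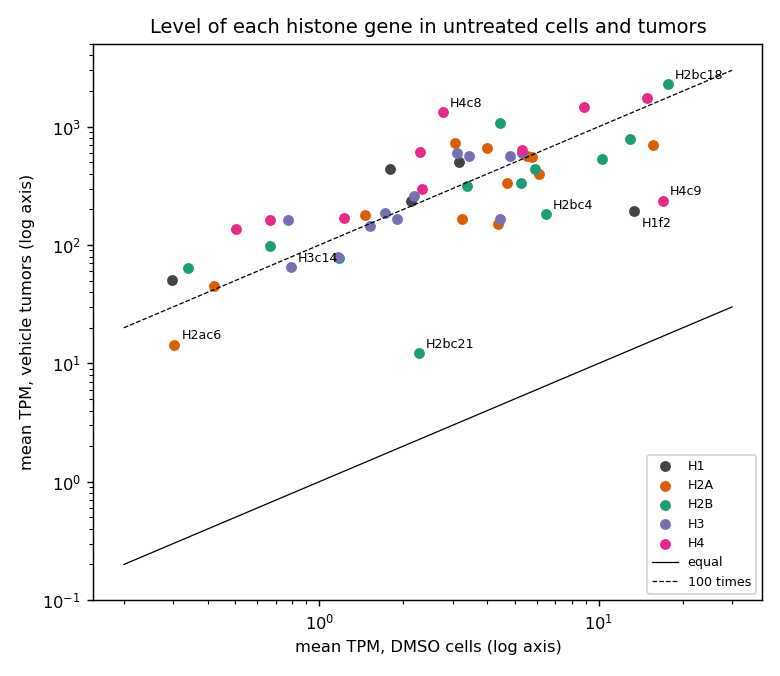
Mean TPM of each member in the DMSO cells (horizontal, log axis) and the vehicle tumors (vertical, log axis), with lines at equal levels and at 100 times. Most members lie near the upper line, and H2bc21, H4c9, H1f2 and H2bc4 lie nearest to equality.

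The comparison of YJ1206 with vehicle tumors asked how the clustered histone genes behaved in tumors under the degrader. Of the 53 members tested, 51 were lower with YJ1206, none was higher, and 2, H2bc21 and H3c14, did not pass at an adjusted p of 0.05 in edgeR's quasi-likelihood test over all 15558 genes. Among all genes tested 26.8% passed, 14.9% lower and 11.9% higher. The median log2 fold change over the 53 members was -1.36, against 0.01 over all genes, and 45 members were lower by at least 2-fold, as were 3.07% of all genes. For 51 members every YJ1206 tumor lay below every vehicle tumor, which held for 22.8% of all genes. Of the 23 members tested with at least 50% of their words found in no other gene, 21 fell, with a median of -1.25, and of those with less, 30 of 30 fell, with a median of -1.37. In bulk tumors fewer dividing cancer cells and less histone mRNA per cell cannot be told apart.

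All 5 H1 genes fell, and H1f1 fell furthest of all members. H1f1 stood at 202, 86.4 and 155 CPM in vehicle tumors 1, 2 and 3 and at 25.5, 46.9 and 39.6 CPM in the YJ1206 tumors, a log2 fold change of -1.98 ± 0.33 (SE) with an adjusted p of 0.00609. Its vehicle values were the widest of the class, and all lay above the treated ones. H1f4, whose promoter like those of H1f2, H1f3 and H1f5 holds both the AAACACA string and a CCAAT box, was steadier. It was at 260.1, 252 and 257 CPM with vehicle and at 67.3, 117 and 98.4 CPM with YJ1206, with a change of -1.44 ± 0.18 and an adjusted p of 0.00229. H1f5 fell by 1.60 on the log2 scale, H1f3 by 1.39 and H1f2 by 1.06, the smallest change of the class.

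All 13 H2A genes tested fell, with a median log2 fold change of -1.36. H2ac18, a chromosome 3 gene, was at 179, 142 and 148 CPM with vehicle and 59.4, 90.7 and 71.6 CPM with YJ1206, and it fell by 1.08 ± 0.16 on the log2 scale. Its near-copy H2ac19 changed least in the class, by -0.80 ± 0.09, from 146, 142 and 150.1 CPM to 73.1, 88.2 and 90.2 CPM. As the words of H2ac19 all occur in H2ac18, the values of both are uncertain singly. H2ac15 changed by -1.50 ± 0.27 and H2ac12 by -1.51 ± 0.37, with adjusted p values of 0.00706 and 0.0221 from the same test.

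Of the 13 H2B genes tested 12 fell, with a median of -1.50. H2bc18 was at 274, 224 and 257 CPM in the vehicle tumors and at 54.5, 117 and 93.9 CPM in the YJ1206 tumors, and its change was -1.51 ± 0.25 with an adjusted p of 0.00564. All treated libraries lay under all vehicle libraries, and library 2 was the nearest in both groups. H2bc12 went from 216, 139 and 187 CPM to 31.7, 75.9 and 59.2 CPM, a change of -1.70 ± 0.31. H2bc3, H2bc14 and H2bc11 changed by -1.90 ± 0.24, -1.80 ± 0.28 and -1.93 ± 0.40, the last at a low level of at most 3.78 CPM. H2bc4 fell least of the members called in any class, by 0.53 ± 0.09 with an adjusted p of 0.00643. It stood at 106, 117 and 104 CPM with vehicle and 66.9, 82.6 and 76.6 CPM with YJ1206.

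Of the 12 H3 genes 11 fell, with a median of -1.36. H3c15 had the second largest change of all members at -1.95 ± 0.40, adjusted p = 0.0127. H3c7 changed by -1.46 ± 0.25 and H3c6 by -1.02 ± 0.18. H3c6 was nearly level over the vehicle tumors at 104, 103 and 103 CPM, and it was at 35.9, 61.2 and 55.3 CPM with YJ1206. All 10 H4 genes fell, with a median of -1.24. H4c4 was at 432, 324 and 375 CPM with vehicle and 121, 191 and 164 CPM with YJ1206, a change of -1.25 ± 0.18 with an adjusted p of 0.0034. H4c8 changed by -0.91 ± 0.13 and H4c14 by -0.89 ± 0.18, both at the small end of the class.

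**Figure D3:**
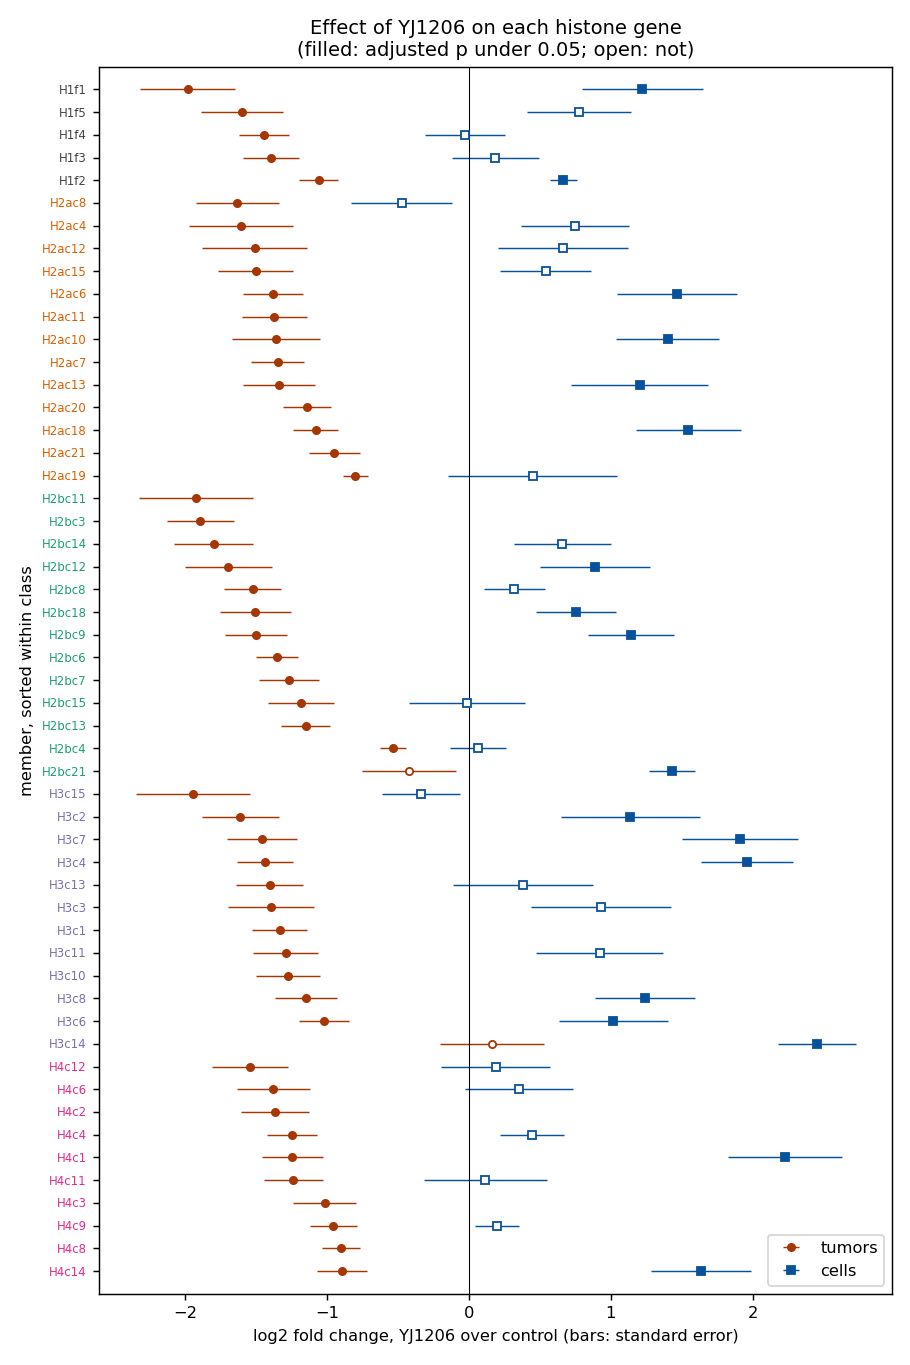
Log2 fold change of each member with YJ1206, in tumors and in cells, by class, with bars for the SE and filled points for an adjusted p under 0.05. The tumor points lie below 0 apart from H3c14, and most of the cell points lie above 0.

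The 2 members that did not pass both lie in the chromosome 3 cluster. There 8 of 10 genes tested fell, with a median log2 fold change of -1.01, against 43 of 43 on chromosome 13 with a median of -1.37. H2bc21, named here after its values were seen, was at 10.04, 28.8 and 17.8 CPM in vehicle tumors 1, 2 and 3 and at 14.5, 13.7 and 14.2 CPM in the YJ1206 tumors. The treated libraries sat within the vehicle range, and the log2 fold change was -0.42 ± 0.33 with an adjusted p of 0.385. Without vehicle tumor 1 it was -0.73 and passed, and without vehicle tumor 2 it was 0.04. H3c14 was at 33.2, 109 and 59.2 CPM with vehicle and at 77.3, 72.5 and 76.3 CPM with YJ1206, a change of 0.16 ± 0.36 with an adjusted p of 0.78. Its treated libraries also sat within the vehicle range. Without vehicle tumor 2 the change was 0.72 and passed as higher, and without vehicle tumor 1 it was -0.17.

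H3c14 and H3c15 are neighbours with the same stem-loop and nearly the same promoter, and they divided their common level unevenly between libraries. H3c15 was at 339, 235 and 295 CPM in the vehicle tumors and at 32.0, 115 and 78.5 CPM in the YJ1206 tumors. The pair summed to 373, 344 and 354 CPM with vehicle and to 109, 187 and 155 CPM with YJ1206, and the groups did not overlap. H3c14 made up 8.92, 31.6 and 16.7% of the pair in the vehicle tumors and 70.7, 38.7 and 49.3% in the YJ1206 tumors. In the DMSO cells it was 28.6, 15.9 and 34.0% of a sum of 3.23, 3.25 and 2.52 CPM. In the YJ1206 cells it was 71.8, 70.4 and 69.7% of 5.08, 6.11 and 6.84 CPM. In both materials its share was higher in every treated library than in every control library. How far read assignment between these copies, through the words they share, sets this share was not tested.

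**Figure D4:**
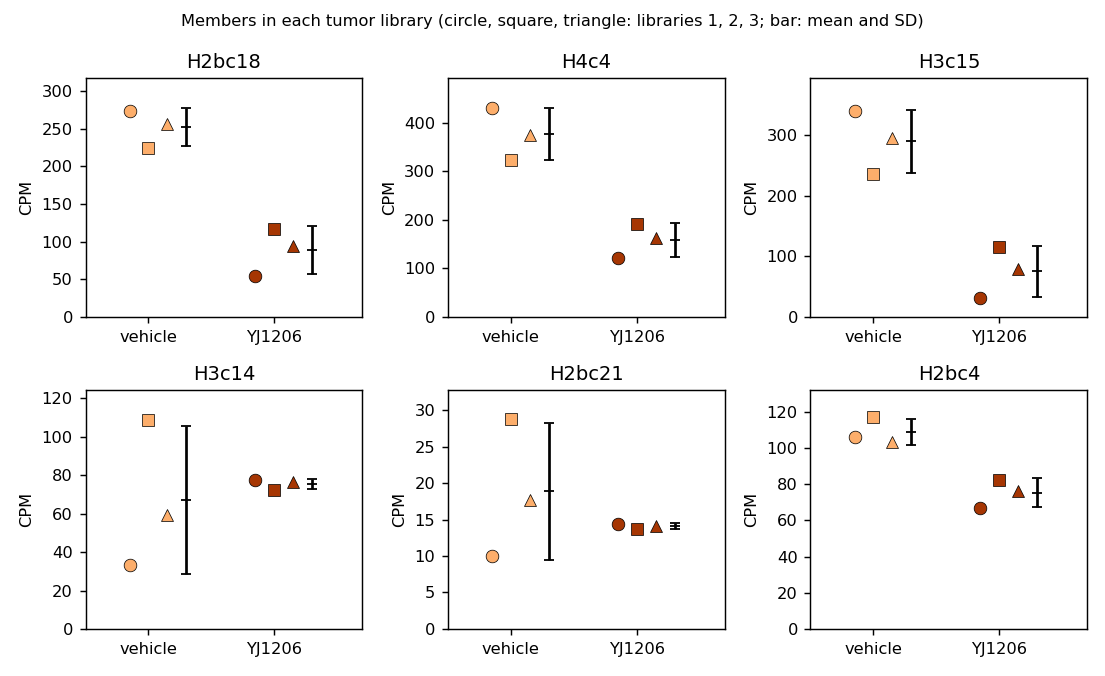
CPM of H2bc18, H4c4, H3c15, H3c14, H2bc21 and H2bc4 in each tumor library (circle, square and triangle for libraries 1, 2 and 3), with bars at the group mean and its SD. The groups are apart for H2bc18, H4c4, H3c15 and H2bc4, while for H3c14 and H2bc21 the treated libraries fall within the vehicle range.

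Members also moved together from library to library within a group. Vehicle tumor 1 held the highest level of 43 of the 53 members tested and vehicle tumor 2 the lowest level of 43. H1f2, H1f3, H2bc4, H2bc7, H2bc13, H2bc21 and H3c14 were highest in vehicle tumor 2. Among the treated tumors, library 2 was highest for 48 members and library 1 lowest for 50. Highest and lowest libraries were not counted over all genes. Library 3 lay between libraries 1 and 2 for 45 of the 53 members with vehicle and 49 with YJ1206. Over all genes tested it did so for 59.8% and 50.6%, against 36.3% and 31.2% in the DMSO and YJ1206 cells. This order was thus not confined to the members. Vehicle tumor 2 was also the vehicle library with the lowest muscle and fibroblast marker sums, 12.7 and 740.0 CPM, against 636 and 2288 CPM in library 1 and 390.2 and 1664 CPM in library 3. The fibroblast sum was 513, 1269.9 and 988 CPM in the YJ1206 tumors. Leukocyte markers summed to 69.9 to 91.3 CPM with vehicle and 84.9 to 118 CPM with YJ1206. Without vehicle tumor 1, 2 or 3 in turn, 52, 51 and 46 of the 53 members were lower, beside 2022 of 15680, 3076 of 15810 and 1178 of 15867 genes of all kinds. Without YJ1206 tumor 3 the numbers were 43 members and 1111 of 15970 genes. The part of these other cells in the result was not tested.

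In the cultured cells the comparison of YJ1206 with DMSO gave changes of the other sign at low levels. Treatment and the number series of the library names coincide in the cells and cannot be told apart. Of 39 members tested 18 were higher with YJ1206, none was lower and 21 did not pass, and the median log2 fold change was 0.76 against -0.02 over all genes. The members' median was 0.54 without YJ1206 library 1. Among all 11826 genes tested 76.1% passed, 37.8% higher and 38.3% lower. For 17 members every YJ1206 library lay above every DMSO library, as for 38.4% of all genes. The members called higher comprised 2 of 5 H1, 4 of 9 H2A, 4 of 8 H2B, 6 of 10 H3 and 2 of 7 H4 genes tested. Scaling by total counts put the median of all genes at -0.20 and left 13 members higher and none lower, with a members' median of 0.57. On log2(TPM + 1), where the all-gene median was -0.24, 12 were higher and 2, H2ac8 and H3c15, were lower, with a members' median of 0.33 and 12 of 39 members at fitted values below 0, against 4 in the CPM fit. Over all genes the main scaling called 4467 higher and 4528 lower, total counts 3314 and 5876, and log2(TPM + 1) 2534 and 6151.

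H1f2, the member with the highest mean CPM in the cells, was at 10.1, 10.9 and 11.1 CPM with DMSO and 17.5, 17.8 and 15.6 CPM with YJ1206, and it rose by 0.67 ± 0.10 on the log2 scale with an adjusted p of 6.83e-07. H2bc21 rose from 3.59, 2.73 and 3.52 CPM to 7.36, 9.20 and 10.1 CPM, a change of 1.43 ± 0.16 with an adjusted p of 8.89e-09. These were the best measured of the members called, and their groups were apart. H3c14 had the largest change at 2.45 ± 0.28, from 0.922, 0.516 and 0.856 CPM to 3.65, 4.30 and 4.76 CPM. H4c1 changed by 2.23 ± 0.40, and its counts rose from 3, 9 and 11 to 22, 31 and 22 in the libraries with YJ1206. H3c4 changed by 1.96 ± 0.33, H3c7 by 1.91 ± 0.41, H4c14 by 1.64 ± 0.35 and H2ac18 by 1.55 ± 0.37, all on fewer than 50 counts per library. H2bc18 passed with 0.76 ± 0.28, adjusted p = 0.0179, but not after scaling by total counts or without DMSO library 2 or YJ1206 library 1. H4c9, at 4.71 to 5.03 CPM with DMSO and 5.07 to 5.86 CPM with YJ1206, changed by 0.20 ± 0.15 with an adjusted p of 0.249, and H2bc4 by 0.07 ± 0.20 with an adjusted p of 0.774.

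Whether the response differed between tumors and cells was tested as an interaction over all 12 libraries. Of 53 members tested 37 passed, all with a more negative change in tumors, against 26.0% of all 15423 genes in that direction and 46.8% in either. Of the 39 members tested in both materials, 16, were called higher in cells and lower in tumors, as were 7.23% of 11307 genes. For the 5 members with the highest mean CPM in cells the log2 difference of tumors minus cells was -1.75 ± 0.18 (SE) for H1f2, adjusted p = 3.92e-06, and -1.89 ± 0.42 for H2bc21, adjusted p = 0.00222. It was -1.18 ± 0.24 for H4c9, -0.63 ± 0.19 for H2bc4 and -1.73 ± 0.37 for H4c4, with adjusted p from 0.00118 to 0.0154. The material, the dosing schedule and the labelled RNA differ between both experiments and cannot be told apart. Nor can treatment and the number series of the library names within the cells.

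Genes around the histone genes were read from 4 lists. Their counts in the cells stand beside 37.8% higher and 38.3% lower among all genes, and those in the tumors beside 11.9% and 14.9%. Replacement and variant histones are encoded outside the clustered families and take the place of the clustered forms at certain sites or times. In tumors 7 of 10 fell, 1 rose and 2 did not pass, with a median of -0.45 against 0.01 for all genes. Cenpa, the centromeric H3, fell by 1.82 ± 0.29 and H2ax, phosphorylated at DNA breaks, by 1.37 ± 0.25, while H2aj rose by 0.49 ± 0.10. H3f3a, which encodes H3.3, was at 0.02 ± 0.05 with an adjusted p of 0.796. In the cells 6 rose and 4 fell, but 5 and 5 on log2(TPM + 1), and H3f3a rose by 0.93 ± 0.03.

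Of 20 genes that transcribe and process histone mRNA, 10 fell and none rose in the tumors, with a median of -0.29. Slbp fell by 0.63 ± 0.09, Npat by 0.38 ± 0.06 and Casp8ap2, a partner of NPAT, by 0.63 ± 0.07. Lsm10 and Lsm11, of the U7 particle, were at -0.28 and -0.04 and did not pass. In the cells 9 rose, 8 fell and 3 did not pass, and the median of -0.11 became 0.04 on log2(TPM + 1). Slbp rose there by 0.50 ± 0.03, while Npat fell by 0.47 ± 0.05 and Lsm11 by 0.86 ± 0.11. Histone chaperones, which carry new histones to chromatin, fell in 14 of 21 cases in tumors, and none rose. Asf1b fell by 1.44 ± 0.21 and Nasp by 0.90 ± 0.10. In the cells 11 chaperones rose and 9 fell, with a median of 0.31 that became -0.03 on log2(TPM + 1).

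Genes of S phase and DNA replication fell in 30 of 33 cases in the tumors and none rose, with a median of -1.02. Rrm2, of ribonucleotide reductase, fell by 1.92 ± 0.22, Mcm2, of the replicative helicase, by 0.84 ± 0.17 and Pcna, the sliding clamp, by 0.82 ± 0.13. Ccne1, a cyclin E gene, was at -0.54 with an adjusted p of 0.0573. Mki67, expressed in cycling cells, fell by 1.72 ± 0.31, from 653 to 715 CPM with vehicle to 108 to 283 CPM with YJ1206. In the cells 9 S phase genes rose, 19 fell and 5 did not pass, with a median of -0.21. On log2(TPM + 1) 5 rose and 25 fell, with a median of -0.51. With total counts 7 rose and 23 fell, with a median of -0.40. The all-gene medians in these fits were -0.24 and -0.20. Rrm2 fell by 0.29 ± 0.02 in the cells under the main scaling. Mki67 was higher by 0.21 ± 0.02, but at -0.10 on log2(TPM + 1) and at 0.02 after scaling by total counts, where it did not pass. The part of proliferation in the histone result was not tested.

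**Figure D5:**
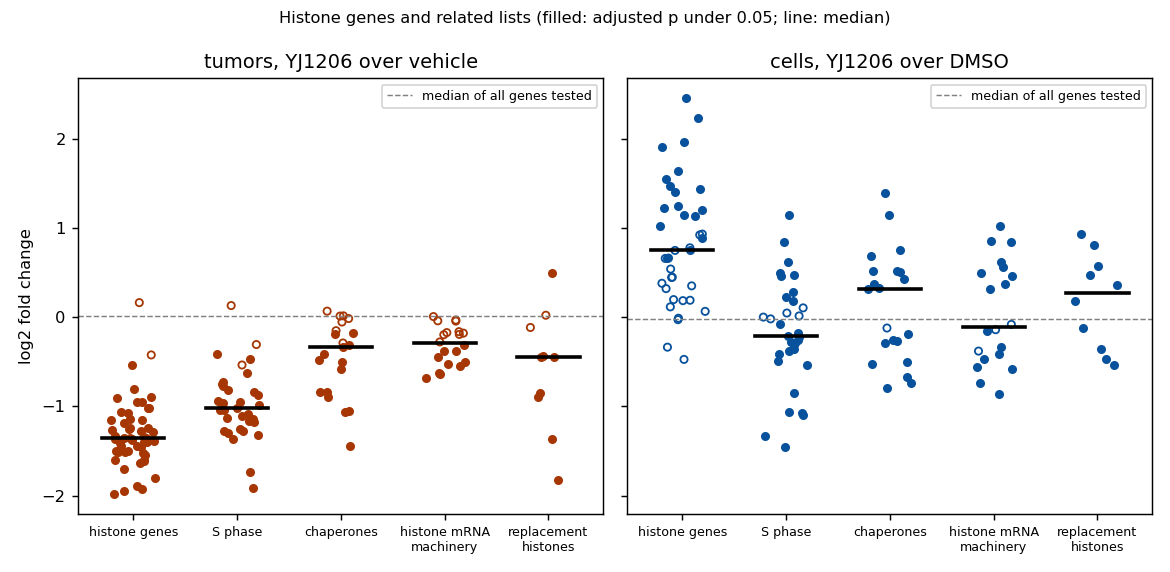
Log2 fold changes of the replication-dependent histone genes and of the 4 related lists in tumors and in cells, 1 point per gene, with a line at each median. In tumors the medians run from -1.36 for the histone genes and -1.02 for the S phase genes to -0.29 for the mRNA machinery, and in cells only the histone genes have a median above 0.5.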

How the data were processed

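RNA-seq libraries of Myc-CaP cells and of Myc-CaP tumors were analysed, with 3 libraries in each of 4 groups taken from the sample labels. The authors deposited estimated counts and TPM per gene, and the submitters' processing notes name kallisto and GRCm38 (mm10). TPM values are per length and sum alike in each library, so they keep no depth. Kallisto shares reads between near-identical transcripts by estimation, which can move counts from one histone copy to another, so class sums are given beside single copies. The depth of each library is given in the report, and 3 counts were taken as the floor.

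Each estimated count was rounded. After the low-count filter filterByExpr and TMM scaling, the counts were tested by the quasi-likelihood method of edgeR 4.0.16, under R 4.3.3. Treatment was the only term within cells and within tumors, and the interaction was fitted over all 12 libraries on the genes in both count tables. The p-values were adjusted over all genes tested by Benjamini-Hochberg with a threshold of 0.05. The SE is the log2 fold change divided by the square root of the F statistic. DESeq2 1.42.0, other scalings, no filter, a replicate block, limma 3.58.1 on log2(TPM + 1) and log2(TPM + 0.1), copies summed by class and leaving out each library were alternatives. Total counts, TPM and copies summed by class were not run for the interaction. The scripts were tested on simulated data.

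Members named were the 4 with the highest mean CPM of each class in each material, plus the 5 largest called changes in each direction. H2bc21 and H4c9 in tumors, H2ac8 and H3c15 in the TPM fit of the cells, and the members listed by library order were named after their values were seen. The genes around the histone genes were named from lists, of which Cenpa, H2aj and the marker genes are outside the naming rule. Members and lists were chosen with earlier results of these data known. Stem-loops were searched in GENCODE transcripts and promoter motifs in RefSeq promoters.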

Additional observations from a re-analysis of the deposited data

Results flagged for a closer look

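The response to YJ1206 differed between tumors and cells by the interaction test over all 12 libraries in edgeR, and 37 of 53 members passed, all with a more negative change in tumors. Among the 5 members with the highest mean CPM in the cells, the log2 difference of tumors minus cells was -1.75 for H1f2, -1.89 for H2bc21, -1.18 for H4c9, -0.63 for H2bc4 and -1.73 for H4c4. H1f2 rose in cells and fell in tumors. H2bc21 rose in cells and was not called in tumors, while H4c9, H2bc4 and H4c4 were not called in cells and fell in tumors.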

How the results depend on the processing

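Counts of called members stayed within 1.5 times their value under the other scalings, DESeq2, no filter and TPM, with 13 to 18 in cells and 51 in tumors. For the difference, RLE scaling, no filter and DESeq2 gave 38 to 50, also within 1.5 times. Total counts and TPM were not run for the difference. With copies summed by class there were 5 units in each material, and all 5 passed in cells and in tumors. Tumor library 3 lay between libraries 1 and 2 for most members, and it was also left out of both groups. With libraries 1 and 2 of each group alone, edgeR called 0 members in tumors and 1 of all 15684 genes. In that fit 51 members had an unadjusted p under 0.05, all lower. DESeq2, added after seeing this, called 45 members and 1277 of all genes, 789 of them lower. Leaving out 1 library gave 12 to 21 calls in cells, 43 to 52 in tumors and 28 to 47 for the difference. The fewest in cells and for the difference came without YJ1206 cell library 1, and the fewest in tumors without YJ1206 tumor 3. Libraries of equal replicate number had deviations from their group means that correlated by -0.03 to 0.002 over all genes tested. With 3 libraries per group this cannot exclude a pairing. A replicate block gave 17 calls in cells, 50 in tumors and 32 for the difference.

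The log2 ratios of the class sums in cells were lower with other units and kept their sign, but on summed TPM the libraries of both groups overlapped for H2A, H2B and H4. On summed TPM the ratios were 0.36 for H1, 0.43 for H2A, 0.14 for H2B, 0.61 for H3 and 0.16 for H4. With total counts they were 0.39, 0.60, 0.53, 0.98 and 0.37 in the same order. The main scaling gave 0.58, 0.79, 0.71, 1.17 and 0.56. Leaving out 1 library gave 0.53 to 0.67 for H1, 0.69 to 0.86 for H2A, 0.65 to 0.74 for H2B, 1.08 to 1.29 for H3 and 0.47 to 0.67 for H4 in cells. In tumors it gave -1.65 to -1.25 for H1, -1.42 to -1.04 for H2A, -1.56 to -1.16 for H2B, -1.50 to -1.08 for H3 and -1.35 to -0.98 for H4.

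Of the single genes named, 9 changed sign in cells and 5 in tumors under some alternative, and the cause was not tested. In cells with total counts, log2(TPM + 1) and log2(TPM + 0.1), in that order, the values were -0.16, -0.28 and -0.29 for Cdk13, -0.000343, -0.0233 and -0.0744 for H1f3, -0.12, -0.21 and -0.25 for H2bc4 and -0.00236, -0.14 and -0.14 for H3f3b. With both TPM settings they were -0.0122 and -0.0115 for H2bc8, -0.14 and -0.15 for H4c9, -0.0988 and -0.0992 for Mki67 and 0.30 and 0.52 for Zfp473. Without single libraries of the cells they ran from -0.00413 to 0.0394 for Cdk13, -0.32 to 0.27 for H1f4, -0.0580 to 0.15 for H2bc4 and -0.26 to 0.0317 for Zfp473. In tumors Cdk13 was -0.0994 and -0.10 and H3f3a -0.0176 and -0.0176 with both TPM settings. Without single tumors H3f3a ran from -0.00459 to 0.0439, H3c14 from -0.17 to 0.72, H2bc21 from -0.73 to 0.0405 and Lsm11 from -0.14 to 0.0137. Depth limits the cells most, where 1 member had over 100 counts in every DMSO library.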
